A study of Homo sapiens with 282 samples.

Results

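The early growth response (EGR) transcription factors and the NAB corepressors that bind them were followed in OCI-Ly3, a human cell line established from a diffuse large B cell lymphoma. The family was taken by gene symbol: EGR1, EGR2, EGR3, EGR4, NAB1 and NAB2 were listed, and 5 of these 6 genes, all but EGR2, had a probe set in the annotation used, out of 18239 genes measured. EGR2 was not analysed here. Each gene was read from the probe set with the highest mean over all arrays.

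Cells in 96-well plates were exposed to 14 compounds for 6, 12 or 24 h, and RNA was hybridised to HT HG-U219 arrays, 282 in all and 94 per time. Aclacinomycin A (0.036 and 0.105 uM), Doxorubicin hydrochloride (0.03 and 0.101 uM), Camptothecin (0.01 and 0.31 uM), Etoposide (0.811 and 0.812 uM), Mitomycin C (0.553 and 2.56 uM), Blebbistatin (10 and 100 uM), Cycloheximide (0.264 and 5 uM), Geldanamycin (0.001 and 0.032 uM), H-7, Dihydrochloride (12.4 and 20.2 uM, called H-7 below), Monastrol (50 and 100 uM), Rapamycin (13.8 and 22 uM), Trichostatin A (0.114 and 0.143 uM) and Vincristine (0.005 and 0.01 uM) each had 3 arrays per concentration and time. Methotrexate had 1 concentration, 100 uM, with 6 arrays per time that carry only the replicate numbers 1, 2 and 3. Cells labelled Media had 2 arrays per time, and the vehicle group, DMSO at 1%, had 8. All groups are 1 cell line, and the labels do not say that replicates were separate cultures, so the p-values measure the spread between these arrays, which may be technical.

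EGR1, EGR3 and EGR4 are zinc finger proteins that bind GC-rich sites in promoters. Their genes belong to the immediate early genes, which are switched on by growth factor, antigen receptor and stress signals through the ERK kinases, serum response factor and its ETS partners, without new protein synthesis. NAB1 and NAB2 have no DNA-binding domain of their own: they dock on EGR proteins and repress their activity, in part through the CHD4 chromatin remodelling complex, and NAB2 is itself a described EGR target, which closes a negative feedback loop.

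The start-site regions of the genes are shown because the factors named above bind such regions: serum response factor binds CArG boxes, and EGR proteins bind GCGTGGGCG and the related GCGGGGGCG. RefSeq promoters of GRCh38.p14, from 250 bases before to 50 bases after a start site, were searched on both strands for the CArG box, both EGR sites and TGACG, the core of the cAMP response element. The windows of EGR1 (chr5:138465229-138465528, plus strand), EGR4 (chr2:73293499-73293798, minus strand) and NAB2 (chr12:57088864-57089163, plus strand) are shown 5′ to 3′ with every match in capitals; a match on the opposite strand reads as its reverse complement, so TGACG appears as CGTCA.
EGR1: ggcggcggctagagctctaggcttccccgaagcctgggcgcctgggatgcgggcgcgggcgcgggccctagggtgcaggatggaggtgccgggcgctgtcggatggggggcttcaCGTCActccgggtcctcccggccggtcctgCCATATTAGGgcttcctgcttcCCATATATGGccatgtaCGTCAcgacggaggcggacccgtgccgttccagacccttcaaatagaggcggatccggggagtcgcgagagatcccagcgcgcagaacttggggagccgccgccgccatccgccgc
EGR4: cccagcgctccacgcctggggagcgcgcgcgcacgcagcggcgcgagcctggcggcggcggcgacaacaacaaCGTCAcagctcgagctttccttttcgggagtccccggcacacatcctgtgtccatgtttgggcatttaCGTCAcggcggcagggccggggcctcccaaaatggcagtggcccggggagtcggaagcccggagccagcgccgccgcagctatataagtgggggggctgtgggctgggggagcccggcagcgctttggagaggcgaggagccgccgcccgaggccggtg
NAB2: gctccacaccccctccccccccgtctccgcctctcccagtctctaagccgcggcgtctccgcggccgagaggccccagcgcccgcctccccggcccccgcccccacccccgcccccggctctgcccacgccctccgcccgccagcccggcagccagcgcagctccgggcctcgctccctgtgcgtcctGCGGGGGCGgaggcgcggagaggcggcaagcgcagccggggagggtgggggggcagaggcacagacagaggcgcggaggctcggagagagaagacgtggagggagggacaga
The EGR1 window held 2 CArG boxes, CCATATTAGG starting 105 bases and CCATATATGG starting 83 bases before the start site, and 2 TGACG matches. At least 1 CArG box was present in 1.29% of all 35116 promoters, and at least 2 in 0.0313% of them. The EGR4 window held no CArG box and 2 TGACG matches, a number that 6.02% of all promoters reach. The NAB2 window held 1 GCGGGGGCG, 62 bases before the start site, a motif that 5.07% of promoters hold at least once. NAB1 has 3 annotated start sites, and the windows of the first 2 overlap. The stretch they share held 1 GCGTGGGCG, which 0.795% of promoters carry, 2 GCGGGGGCG that overlap each other, a number that 0.584% of promoters reach, and 1 TGACG. The EGR3 window was not used here. These matches are descriptions of the letters in these windows, and binding was not measured.

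Array quality differed between the times. None of the 94 arrays of 6 h was a low-signal array (upper quartile of log2 values under 8, or a difference between 3′ and 5′ ACTB probe sets over 2), but 31 arrays of 12 h, 4 of them DMSO, and 17 arrays of 24 h, 1 of them DMSO, were. The 6 h results therefore come first, and those of 12 and 24 h are also given without the low-signal arrays. In DMSO at 6 h, 3 of 8 measured B cell markers lay above the median of the genes on all 8 arrays: PAX5, CD74 and IRF4. MS4A1, CD79A, CD79B, CD22 and BLNK lay below it, between 4.12 and 5.02 against array medians of 6.38 to 6.58. Of 7 T cell markers only CD4 lay above it, and of the 7 myeloid and the 7 fibroblast and epithelial markers, 0 did.

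At 6 h, EGR3 and EGR4 were among the most mobile genes on the array, whereas EGR1 was high in nearly every group and, on the probe set used, spread less. The SD of the 29 group means, in log2 units, was 1.01 for EGR4, 0.74 for EGR3, 0.25 for EGR1, 0.22 for NAB2 and 0.19 for NAB1. It was smaller in 99.99% of genes than in EGR4, and in 99.86% of genes than in EGR3, while the share was 73.6% for EGR1, 64.9% for NAB2 and 58.1% for NAB1. The EGR1 value is that of its brightest probe set, and dimmer EGR1 probe sets changed by up to 0.88 where it changed by 0.27, as given with EGR1 further on. Against DMSO, 44 of the 140 pairs of a gene and a group were called by limma with Benjamini-Hochberg adjustment over all genes, at an adjusted p under 0.05 (27 higher and 17 lower). Over all genes and the same 28 contrasts, 14.1% of pairs were called, 7.19% higher and 6.94% lower. All contrasts of a time share the same 8 DMSO arrays, and in these bulk RNA samples a change in how many cells express a gene cannot be told apart from a change in RNA per cell.

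**Figure D1:**
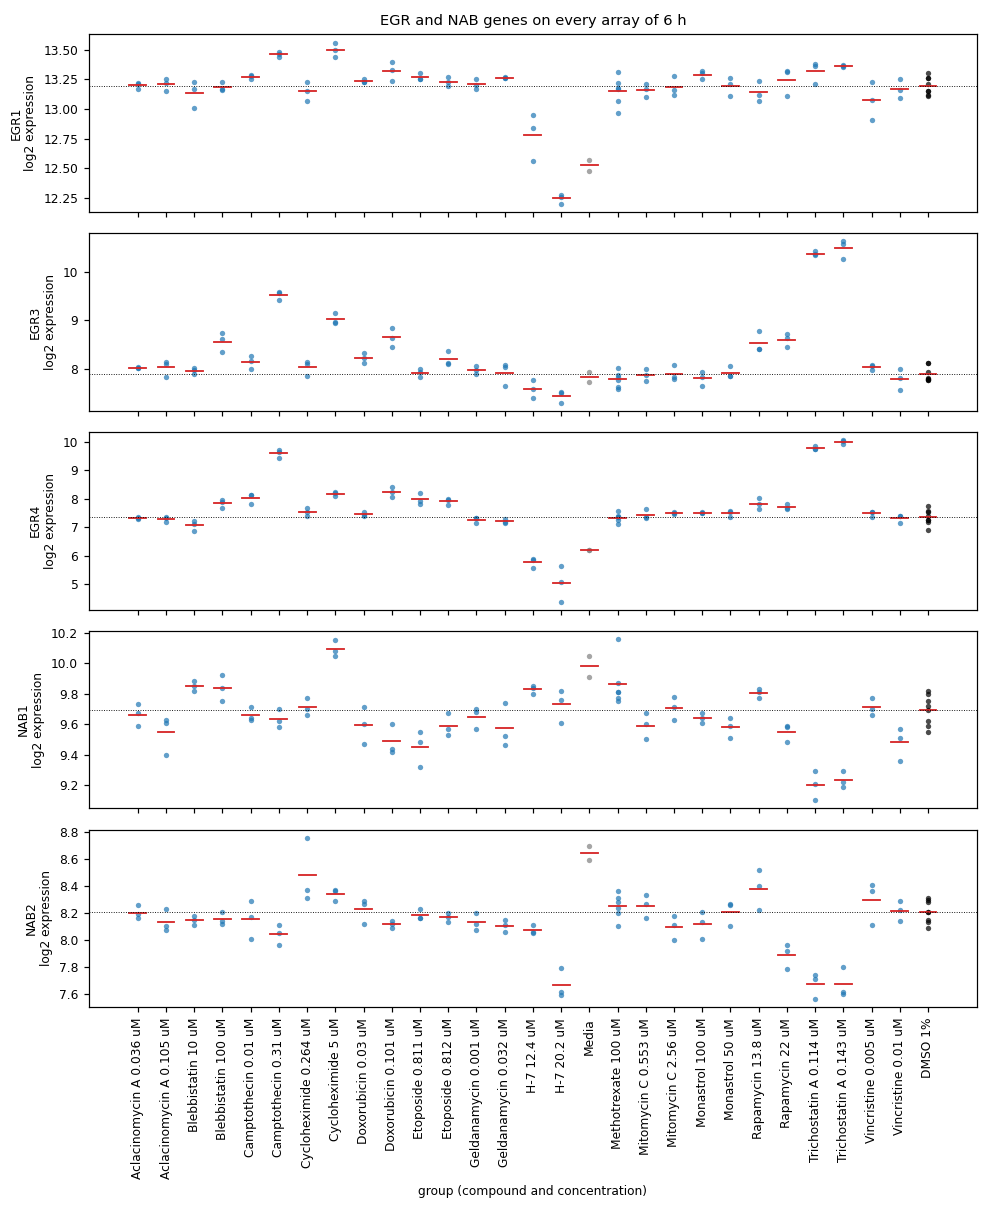
Log2 expression of EGR1, EGR3, EGR4, NAB1 and NAB2 on every array of 6 h. Each point is 1 array, red bars are group means, the dotted line is the DMSO mean, and DMSO stands at the right. Trichostatin A and Camptothecin 0.31 uM stand highest for EGR3 and EGR4, and H-7 stands lowest for EGR1, EGR3 and EGR4.

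EGR4, the least studied member and best known from neurons, rose in 11 of the 28 contrasts at 6 h and fell in 3. Its highest levels were under Trichostatin A, a histone deacetylase inhibitor, and its lowest under H-7, an inhibitor of several protein kinases. At 0.143 uM Trichostatin A, EGR4 measured 10.02, 9.93 and 10.05 log2 units on the 3 arrays, against 6.92 to 7.73 (median 7.34) on the 8 DMSO arrays. The groups did not overlap, and the log2 fold change was 2.64 ± 0.12 (SE; limma, adjusted p = 4.8e-35). At 0.114 uM it measured 9.73, 9.86 and 9.74, a change of 2.42 ± 0.12. Camptothecin, which traps topoisomerase I on DNA, gave 9.62, 9.71 and 9.44 at 0.31 uM, all above every DMSO array, and a change of 2.23 ± 0.12 (limma, adjusted p = 1.7e-30). At 0.01 uM Camptothecin it measured 8.13, 7.82 and 8.14, a change of 0.67 ± 0.12.

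Smaller rises of EGR4 came with compounds of several kinds. Doxorubicin hydrochloride at 0.101 uM, an anthracycline that traps topoisomerase II, raised it by 0.88 ± 0.12, and Cycloheximide at 5 uM, an inhibitor of translation elongation, by 0.82 ± 0.12. Etoposide, another topoisomerase II poison, gave 0.61 ± 0.12 at 0.811 uM and 0.56 ± 0.12 at 0.812 uM, concentrations so close that they serve as a repeat. In each of these groups all 3 arrays lay above every DMSO array. Blebbistatin at 100 uM, an inhibitor of non-muscle myosin II (0.47 ± 0.12), and the mTOR inhibitor Rapamycin at 13.8 uM (0.45 ± 0.12) and 22 uM (0.35 ± 0.12) raised it by less, and their arrays overlapped those of DMSO. These 3 calls were lost when 1 of the replicate numbers was left out. Here and below, leaving out a number removed its arrays from every compound group and from Media at once, and kept DMSO whole. A call lost in this way can therefore reflect the smaller number of arrays as well as the array left out.

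EGR4 fell under both concentrations of H-7 and was lower in Media than in DMSO. At 20.2 uM H-7 it measured 5.65, 4.40 and 5.08, against 6.92 to 7.73 in DMSO, a change of -2.32 ± 0.12 (limma, adjusted p = 2.3e-31). At 12.4 uM it measured 5.89, 5.87 and 5.58, a change of -1.58 ± 0.12. In Media it measured 6.20 on both arrays, below every DMSO array, a change of -1.16 ± 0.14 (limma, adjusted p = 4.1e-11), so the vehicle group itself stood above cells without it. Ordered by mean, the groups ran down from Trichostatin A 0.143 uM (10.00) and 0.114 uM (9.78) through Camptothecin 0.31 uM (9.59) to Doxorubicin hydrochloride 0.101 uM (8.24), then without a break through the remaining called rises (8.18 to 7.71) to DMSO (7.36), and below all of these to Media (6.20), H-7 12.4 uM (5.78) and H-7 20.2 uM (5.04). Neighbours between 8.24 and 7.71 overlapped on their arrays. In the 14 contrasts not called, the change lay between -0.29 and 0.16.

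EGR3, which works with the other EGR factors downstream of antigen receptors in lymphocytes, rose in 9 contrasts and fell in 2. Its values under 0.143 uM Trichostatin A were 10.63, 10.26 and 10.58, against 7.78 to 8.13 (median 7.81) in DMSO. No treated array overlapped DMSO, and the change was 2.60 ± 0.10 (SE; limma, adjusted p = 2.1e-40), beside 2.48 ± 0.10 at 0.114 uM. Camptothecin at 0.31 uM gave 9.57, 9.42 and 9.59, a change of 1.63 ± 0.10. Cycloheximide at 5 uM gave 9.15, 8.97 and 8.95, a change of 1.13 ± 0.10. Doxorubicin hydrochloride 0.101 uM (0.75 ± 0.10), Rapamycin (0.64 ± 0.10 at 13.8 uM and 0.70 ± 0.10 at 22 uM) and Blebbistatin 100 uM (0.67 ± 0.10) followed, each with all arrays above DMSO, and Etoposide 0.812 uM was last with 0.30 ± 0.10 (limma, adjusted p = 0.048) and arrays that overlapped DMSO. This call was lost in 12 of 20 other settings, and at 0.811 uM the change of EGR3 was 0.03 ± 0.10 and not called.

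On the probe sets used, EGR3 fell less than EGR4 under H-7. At 20.2 uM it measured 7.50, 7.30 and 7.52, below every DMSO array, a change of -0.46 ± 0.10, and at 12.4 uM the change was -0.31 ± 0.10, a call lost without replicate 3. Both EGR3 calls were also lost when the values were quantile normalized again, and when all probe sets of a gene were averaged. In Media its change of -0.06 ± 0.11 was not called. The EGR3 calls rest on 1 of 4 probe sets: the other 3 averaged 3.92 to 4.43 at 6 h, correlated with the one used at r = 0.08 to 0.33 over the 94 arrays, and were not called by limma under Trichostatin A 0.143 uM, Camptothecin 0.31 uM, Cycloheximide 5 uM or H-7 20.2 uM. The second EGR4 probe set was dimmer as well (mean 5.19) but followed the first at r = 0.85, and was called higher under Trichostatin A 0.143 uM, Camptothecin 0.31 uM and Cycloheximide 5 uM and lower under H-7 20.2 uM. Its falls under H-7, -0.465 at 20.2 uM and -0.33 at 12.4 uM, were close to those of EGR3. The first EGR4 probe set fell by -2.32 and -1.58. It was not called in Media (-0.24, against -1.16 for the first) or under Doxorubicin hydrochloride 0.101 uM (0.23, against 0.88).

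EGR1, the best known of the family and a regulator of growth and apoptosis genes, averaged 13.20 ± 0.07 (SD, n = 8) in DMSO at 6 h, on a scale whose highest value on any array was 14.5, and lay above 99.4% of the genes. It rose in 3 contrasts and fell in 3. Under Camptothecin 0.31 uM it measured 13.48, 13.46 and 13.44, against 13.11 to 13.30 (median 13.18) in DMSO, a change of 0.27 ± 0.05 (SE; limma, adjusted p = 9.8e-06). Cycloheximide 5 uM gave 0.30 ± 0.05 and Trichostatin A 0.143 uM 0.17 ± 0.05, both with all arrays above DMSO. H-7 gave its lowest values: 12.26, 12.20 and 12.28 at 20.2 uM, a change of -0.95 ± 0.05 (limma, adjusted p = 6.4e-29), and -0.41 ± 0.05 at 12.4 uM. The Media arrays measured 12.57 and 12.48, below every DMSO array, a change of -0.67 ± 0.06 (limma, adjusted p = 1.3e-15).

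All 6 EGR1 probe sets moved the same way in these groups, and in the 3 groups where EGR1 rose the 3 dimmest changed by more than the 3 brightest. Under Camptothecin 0.31 uM the 6 probe sets were all called higher, with changes from 0.27 for the brightest, used for EGR1, to 0.88 for the dimmest, whose level in DMSO was 8.16. Under Cycloheximide 5 uM they ran from 0.24 to 0.78 and under Trichostatin A 0.143 uM from 0.17 to 0.52, again all called. Falls ran from -1.24 to -0.71 under H-7 20.2 uM and from -1.05 to -0.56 in Media, also called for all 6. The size of an EGR1 rise therefore depended on the probe set read, and its direction did not. The call could depend on it too. Under Trichostatin A 0.114 uM the probe set used changed by 0.12 and was not called, while 5 of the 6 were called higher. Under Doxorubicin hydrochloride 0.101 uM it changed by 0.13 and was not called, while 2 of the 6 were called higher.

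**Figure D2:**
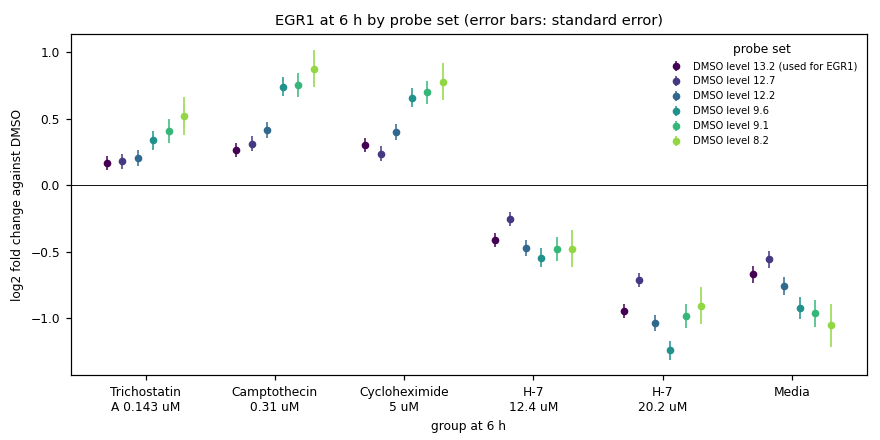
Log2 fold change of the 6 EGR1 probe sets against DMSO at 6 h, with standard errors, for 6 groups; colours give the probe set by its DMSO level. In Camptothecin 0.31 uM the changes run from 0.27 to 0.88, and in H-7 20.2 uM from -1.24 to -0.71.

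The corepressors moved in both directions at 6 h, by less than EGR3 and EGR4 in the spread of their group means. NAB1 rose in 2 contrasts and fell in 4, and NAB2 rose in 2 and fell in 5. Both fell under Trichostatin A, in the groups in which EGR3 and EGR4 rose the most. At 0.143 uM, NAB1 measured 9.22, 9.29 and 9.19, against 9.55 to 9.82 (median 9.70) in DMSO, a change of -0.46 ± 0.06 (SE; limma, adjusted p = 6.0e-10). NAB2 measured 7.60, 7.80 and 7.61, against 8.09 to 8.31 (median 8.21) in DMSO, a change of -0.54 ± 0.07 (limma, adjusted p = 1.1e-10). Neither gene's arrays overlapped DMSO, the values at 0.114 uM were -0.49 ± 0.06 for NAB1 and -0.54 ± 0.07 for NAB2, and all 7 NAB1 probe sets were called lower at 0.143 uM.

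In some groups only 1 of the corepressors was called, in others both. Cycloheximide 5 uM raised NAB1 to 10.08, 10.15 and 10.05, above every DMSO array, a change of 0.40 ± 0.06 (limma, adjusted p = 7.4e-08), while NAB2 changed by 0.13 ± 0.07 and was not called. H-7 20.2 uM lowered NAB2 to 7.61, 7.59 and 7.79, a change of -0.55 ± 0.07 (limma, adjusted p = 8.6e-11), with NAB1 at 0.04 ± 0.06. Both were higher in Media than in DMSO: NAB1 measured 9.91 and 10.05, a change of 0.29 ± 0.07, and NAB2 8.59 and 8.70, a change of 0.43 ± 0.08, all above every DMSO array, where EGR1 and EGR4 were lower. NAB2 also fell under Rapamycin 22 uM (-0.32 ± 0.07) and Camptothecin 0.31 uM (-0.17 ± 0.07) and rose under Cycloheximide 0.264 uM (0.27 ± 0.07), the last on 1 high array (8.76, beside 8.37 and 8.31), without which the change was 0.13 and not called. NAB1 fell under Etoposide 0.811 uM (-0.24 ± 0.06) and Doxorubicin hydrochloride 0.101 uM (-0.21 ± 0.06), with arrays that overlapped DMSO. Leaving out 1 replicate number ended the NAB1 calls under Etoposide 0.811 uM and Doxorubicin hydrochloride 0.101 uM and the NAB2 call under Camptothecin 0.31 uM. It also ended the NAB1 call in Media, where 1 array remained. Which corepressor was called also depended on the NAB1 probe set. Of its 7 probe sets, 1 was called higher under H-7 20.2 uM (0.21) and 2 lower under Camptothecin 0.31 uM, but the one used was called in neither.

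Counted by contrast, several compounds that moved the family at 6 h moved much of the transcriptome. The number of the 5 genes called was 5 under Trichostatin A 0.143 uM and 4 under 0.114 uM, where 44.7% and 44.3% of all genes were called. It was 4 under Camptothecin 0.31 uM (46.9% of all genes), 4 under H-7 20.2 uM (50%), 3 under H-7 12.4 uM (33.5%), 4 under Cycloheximide 5 uM (33.4%) and 4 in Media (25.5%). Under Rapamycin 22 uM 3 were called (26.6%) and under 13.8 uM 2 (17.8%), and under Cycloheximide 0.264 uM 1 (9.76%). In the other contrasts with calls fewer of all genes were called: 2 of the family under Blebbistatin 100 uM (2.59%), 3 under Doxorubicin hydrochloride 0.101 uM (7.14%), 2 under Etoposide 0.812 uM (4.57%) and 2 under 0.811 uM (6.34%), and 1 under Camptothecin 0.01 uM (3.65%).

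No gene of the family was called at 6 h under Methotrexate, Mitomycin C, Monastrol, Vincristine, Geldanamycin or Aclacinomycin A at any concentration, nor under Blebbistatin 10 uM or Doxorubicin hydrochloride 0.03 uM. Of all genes, 16.5% were called under Geldanamycin 0.032 uM and 7.59% under Monastrol 100 uM. In the others the share lay between 0% (Aclacinomycin A 0.036 uM) and 2.97% (Mitomycin C 2.56 uM), so few calls of any gene were made there. Of the 65 pairs in these 13 contrasts, 7 had an unadjusted limma p under 0.05. Aclacinomycin A and Doxorubicin hydrochloride are both anthracyclines, but their concentrations differed and were not compared: at 0.105 uM Aclacinomycin A, EGR4 measured 7.29 ± 0.08 and EGR3 8.03 ± 0.17 (SD, n = 3), and at 0.101 uM Doxorubicin hydrochloride, EGR4 measured 8.24 ± 0.18 and EGR3 8.65 ± 0.20.

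EGR3 and EGR4 differed between the concentrations of several compounds, most under Camptothecin. Between the higher and the lower concentration of a compound, 16 of 65 pairs were called at 6 h, 11 higher and 5 lower, beside 8.51% of pairs over all genes. Under Camptothecin, EGR4 was higher at 0.31 than at 0.01 uM by 1.56 ± 0.14, EGR3 by 1.39 ± 0.12 and EGR1 by 0.19 ± 0.06, in a contrast that called 39.2% of all genes. Under Cycloheximide, 5 against 0.264 uM gave 0.99 ± 0.12 for EGR3, 0.65 ± 0.14 for EGR4, 0.35 ± 0.06 for EGR1 and 0.38 ± 0.08 for NAB1, where 21.2% of all genes were called. Blebbistatin at 100 against 10 uM gave 0.76 ± 0.14 for EGR4 and 0.60 ± 0.12 for EGR3, where 0.186% of all genes were called, and Doxorubicin hydrochloride at 0.101 against 0.03 uM gave 0.78 ± 0.14 and 0.43 ± 0.12, where 1.5% were. Leaving out 1 replicate number ended the Blebbistatin calls, the EGR3 call of Doxorubicin hydrochloride and the EGR1 call of Camptothecin.

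Higher concentrations of H-7 and Rapamycin lowered genes of the family. H-7 at 20.2 against 12.4 uM lowered EGR4 (-0.74 ± 0.14), EGR1 (-0.54 ± 0.06) and NAB2 (-0.41 ± 0.08), where 30.8% of all genes were called; without replicate 2 the EGR4 difference was -0.37 and not called. Rapamycin at 22 against 13.8 uM lowered NAB2 (-0.49 ± 0.08) and NAB1 (-0.25 ± 0.08), where 6.16% of all genes were called, and the NAB1 call was lost when any 1 replicate number was left out. No pair was called between the concentrations of Trichostatin A or Etoposide, whose labelled concentrations lie close together, nor, at 6 h, between the wider spaced ones of Aclacinomycin A, Geldanamycin, Mitomycin C, Monastrol or Vincristine. At 6 h these contrasts called 9.9% of all genes for Geldanamycin and at most 0.894% (Vincristine) for the others. At 12 h 1 of 65 pairs was called (2.49% of pairs over all genes), EGR1 under Geldanamycin, which rests on the array described with the 12 h results, in a contrast that called 26.3% of all genes. At 24 h 3 were (2.69%): EGR4 was higher at 2.56 than at 0.553 uM Mitomycin C by 1.17 ± 0.30 (5.66% of all genes) and at 0.31 than at 0.01 uM Camptothecin by 1.01 ± 0.30 (3.28%), and NAB2 was lower at 5 than at 0.264 uM Cycloheximide, by -1.52 ± 0.40 (6.48%). Without the low-signal arrays, 1 of which measured 5.16, the NAB2 difference was -0.72 and rested on 1 array at 5 uM. It was -0.70 and not called without the replicate number of the array at 5.16 alone. The other 2 calls were also lost when 1 replicate number was left out.

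Across the 29 group means of 6 h, EGR3 and EGR4 were most alike (Pearson r = 0.87), followed by EGR1 and EGR4 (0.80), NAB1 and NAB2 (0.61) and EGR1 and EGR3 (0.50). NAB1 ran against EGR4 (-0.55) and EGR3 (-0.48), but without the 4 Trichostatin A and H-7 groups these were -0.20 and 0.17, so they rested on those groups. EGR1 and NAB2 had r = -0.01 over all 29 groups and -0.64 over the remaining 25. Among 9118 genes of above-median level, the closest to EGR1 were NR4A1 (0.94), an immediate early nuclear receptor, EFNB2 (0.93) and RINT1 (0.92); to EGR3, CIAO1 (0.94), AVPI1 (0.91) and UBE2A (0.91); and to EGR4, WDR91 (0.95), RND1 (0.95) and TRAFD1 (0.94). NAB1 was closest to BCL3 (0.86), PLCXD1 (0.84) and JAM2 (0.83), and NAB2 to RCSD1 (0.90), DNAJC11 (0.88) and GATB (0.88). These values describe groups that share arrays of 1 time and 1 normalization.

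Other genes around the EGR loop were counted in the same contrasts, beside the share of all genes called in each direction. Under Trichostatin A 0.143 uM that share was 22.3% higher and 22.4% lower. Of 21 measured immediate early genes, 14 rose and 3 fell under Trichostatin A 0.143 uM at 6 h (median change 0.47, against -0.01 over all genes). NR4A2 (1.98), FOSB (1.40) and FOS (1.37) led the rises, and JUN (-1.04), MYC (-0.65) and KLF4 (-0.59) the falls. Of 14 ERK feedback genes 7 rose and 1 fell: DUSP5, an ERK phosphatase, rose by 1.44, the ETS factor ETV5 by 1.25 and PHLDA1 by 0.94, and the phosphatase DUSP4 fell by 0.97 on the log2 scale. Of 17 described EGR targets 9 rose, led by the death ligand TNFSF10 (1.82), ID3 (1.5) and THBS1 (0.93), and 2 fell, PDGFA (-1.04) and DGKZ (-0.17). The partners of the NAB proteins and of EGR1 went mostly the other way: 1 of 11 rose, the remodeller CHD4 (0.53), and 6 fell, led by the coactivator CREBBP (-1.77), HCFC1 (-1.14) and SP1 (-0.97). Of 16 upstream kinases and factors 8 rose, led by MRTFA (1.02), PRKCB (0.75) and RPS6KA5 (0.75), and 6 fell, led by the ETS factor ELK3 (-1.63), ARAF (-0.95) and ELK4 (-0.44).

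Under Camptothecin 0.31 uM, 17 of the 21 immediate early genes rose and 0 fell by limma's adjusted p or by its unadjusted p (median 0.87, against 0.06 over all genes), where 27% of all genes rose and 19.9% fell. ARC (3.08), IER3 (2.79) and ATF3 (2.56) rose the most. ERK feedback genes split into 5 rises, led by FOSL1 (2.33), DUSP5 (1.45) and PHLDA1 (1.34), and 3 falls, SPRED2 (-0.64), DUSP6 (-0.33) and DUSP4 (-0.13). Of the EGR targets 8 rose, with ID3 (2.48), the cell cycle inhibitor CDKN1A (1.52) and TNFSF10 (1.08) first, and 2 fell, CBLB (-1.21) and CD44 (-0.87). Of 16 upstream kinases and factors 0 rose by limma's adjusted p (1 by the unadjusted p) and 8 fell, led by RPS6KA3 (-2.03), PRKCA (-1.77) and MRTFB (-1.54). Of the partners of the NAB proteins and of EGR1, 2 rose, MTA2 (1.22) and MTA1 (0.26), and 4 fell, among them CREBBP (-1.01), EP300 (-0.52) and CHD4 (-0.36). Of the T cell markers 4 of 7 were also called higher there (median 0.23), and of the B cell markers 3 of 8 higher and 1 lower; their part in these results was not tested.

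Cycloheximide 5 uM raised 14 immediate early genes and lowered 1 (median 0.60, against -0.03 over all genes), where 16.5% of all genes rose and 16.8% fell, with KLF6 (1.48), NR4A3 (1.27) and NR4A2 (1.21) at the top and MYC (-0.66) lower. It raised 8 and lowered 3 of the EGR targets, led by ID3 (1.49), the adhesion molecule ICAM1 (1.43) and TNFSF10 (0.88). Of the ERK feedback genes SPRED1 (1.03), PHLDA1 (0.74) and ETV5 (0.40) led the rises, and SPRY4 (-0.61) fell. H-7 20.2 uM lowered 11 and raised 7 immediate early genes (median -0.34, against 0.03), where 27% of all genes fell and 23% rose. NR4A1 (-1.37), MYC (-1.27) and DUSP2 (-1.26) fell the most, whereas KLF6 (1.60), JUNB (0.63) and IER5 (0.61) rose. Among the ERK feedback genes DUSP5 (-1.36), PHLDA1 (-0.70) and SPRY2 (-0.54) led 4 falls, beside 6 rises. Among the EGR targets PDGFA (1.16), FN1 (0.62) and TGFB1 (0.59) led the rises, and TNF (-0.79), CBLB (-0.76) and NDRG1 (-0.49) the falls. The upstream genes and the partners are not described here for Cycloheximide and H-7.

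In Media 11 immediate early genes were lower than in DMSO and 4 higher (median -0.23, against -0.01), where 13.8% of all genes were lower and 11.7% higher. FOS (-1.80), NR4A1 (-1.31) and FOSB (-1.07) stood furthest below DMSO, and MYC (0.75), KLF6 (0.55) and IER3 (0.32) above it. Of the EGR targets 6 were higher in Media, led by THBS1 (2.33), TNFSF10 (1.05) and ICAM1 (0.68), and 2 lower, CBLB (-0.40) and NDRG1 (-0.29). Of the ERK feedback genes PHLDA1 (0.66) and DUSP4 (0.515) were higher, and DUSP5 (-0.63) and SPRY4 (-0.48) lower. The upstream genes are not described here for Media. Of the 11 partners of the NAB proteins and of EGR1, 5 were higher, led by MTA1 (0.52), MTA2 (0.40) and CHD3 (0.35), and CREBBP (-0.34) was lower.

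At 12 h, EGR3 and EGR4 were still far above DMSO under Trichostatin A. Of 140 pairs 12 were called, 10 higher and 2 lower, beside 2.72% of pairs over all genes, and 32 of 120 without the low-signal arrays, beside 9% of pairs over all genes. Under Trichostatin A 0.143 uM, EGR4 measured 9.49, 9.32 and 9.66, against 5.83 to 6.48 (median 6.23) in DMSO, and EGR3 10.68, 10.21 and 10.45, against 6.41 to 8.23 (median 7.22) in DMSO. No arrays overlapped; the changes were 3.31 ± 0.28 for EGR4 and 3.21 ± 0.35 for EGR3 (SE; limma, adjusted p = 1.3e-14 and 4.3e-11). At 0.114 uM they were 2.85 ± 0.28 and 2.72 ± 0.35. These 2 of 5 genes were called at each concentration, beside 10.5% of all genes at 0.143 uM and 7.8% at 0.114 uM. Without the low-signal arrays EGR1 rose as well, by 0.45 ± 0.11 at 0.143 uM and 0.34 ± 0.11 at 0.114 uM.

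EGR4 was the gene called most often at 12 h, in 7 contrasts. It rose under Camptothecin 0.31 uM (2.08 ± 0.28) and 0.01 uM (1.90 ± 0.28), Mitomycin C 2.56 uM (1.41 ± 0.28), a DNA crosslinker under which its change at 6 h was 0.14 ± 0.12, and Etoposide 0.811 uM (1.33 ± 0.28), each with all arrays above DMSO. In 3 of these contrasts it was the 1 gene of the family called, beside few others: 0.137% of all genes were called under Mitomycin C 2.56 uM, 0.175% under Camptothecin 0.01 uM and 0.247% under Etoposide 0.811 uM, against 9.12% under Camptothecin 0.31 uM. It fell under H-7 20.2 uM (3.32% of all genes called) to 4.60, 5.46 and 4.83, below every DMSO array (-1.22 ± 0.28). The calls under Mitomycin C 2.56 uM, Etoposide 0.811 uM and H-7 20.2 uM were lost when 1 replicate number was left out. EGR3 rose under Camptothecin 0.31 uM by 1.23 ± 0.35, with arrays that overlapped DMSO and a call likewise lost. By limma, 0 of the 28 contrasts at 12 h was called for NAB1 and 0 for NAB2, with an unadjusted p under 0.05 in 2 for NAB1 and 1 for NAB2. Without the low-signal arrays NAB2 fell under Trichostatin A 0.114 uM (-0.83 ± 0.16), Trichostatin A 0.143 uM (-0.67 ± 0.16), Camptothecin 0.31 uM (-0.64 ± 0.16) and H-7 20.2 uM (-0.50 ± 0.14). On these arrays 9% of pairs over all genes and contrasts with DMSO at 12 h were called.

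The remaining calls of 12 h, under Geldanamycin 0.001 uM, came from 1 array. There EGR1 measured 12.96, 6.04 and 13.01 and EGR3 7.66, 9.98 and 7.31; the odd values are both of replicate 2, a low-signal array. The changes with that array were -2.06 ± 0.47 for EGR1 and 1.08 ± 0.35 for EGR3, and without the low-signal arrays EGR1 was at 0.26, with no call for either gene. In this contrast 28% of all genes were called.

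At 24 h the strongest change of the family, on the probe sets used, was a rise of EGR4 under Methotrexate, an inhibitor of dihydrofolate reductase. The EGR4 changes under Methotrexate at 6 and 12 h were -0.02 ± 0.09 and 0.04 ± 0.23. EGR4 measured 9.11 to 9.37 (median 9.20) on the 6 Methotrexate arrays, against 5.55 to 6.56 (median 5.82) in DMSO, a change of 3.31 ± 0.20 (SE; limma, adjusted p = 3.9e-22). EGR3 measured 9.65 to 10.10 (median 9.90), against 8.25 to 9.23 (median 8.75) in DMSO, a change of 1.12 ± 0.20 (limma, adjusted p = 2.8e-05). Neither gene's arrays overlapped DMSO, and with the Methotrexate arrays averaged by replicate number the changes were called as well, at 3.31 ± 0.26 and 1.12 ± 0.25. On the second EGR4 probe set the change was 1.13, also called. On the other EGR3 probe sets the changes lay between -0.085 and 0.11 and were not called. In this contrast 4.74% of all genes were called. Without the low-signal arrays of all groups of 24 h EGR1 rose too, by 0.32 ± 0.04, and NAB1 fell, by -0.24 ± 0.06. With all arrays these changes were 0.35 ± 0.25 and -0.23 ± 0.24, and neither was called.

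**Figure D3:**
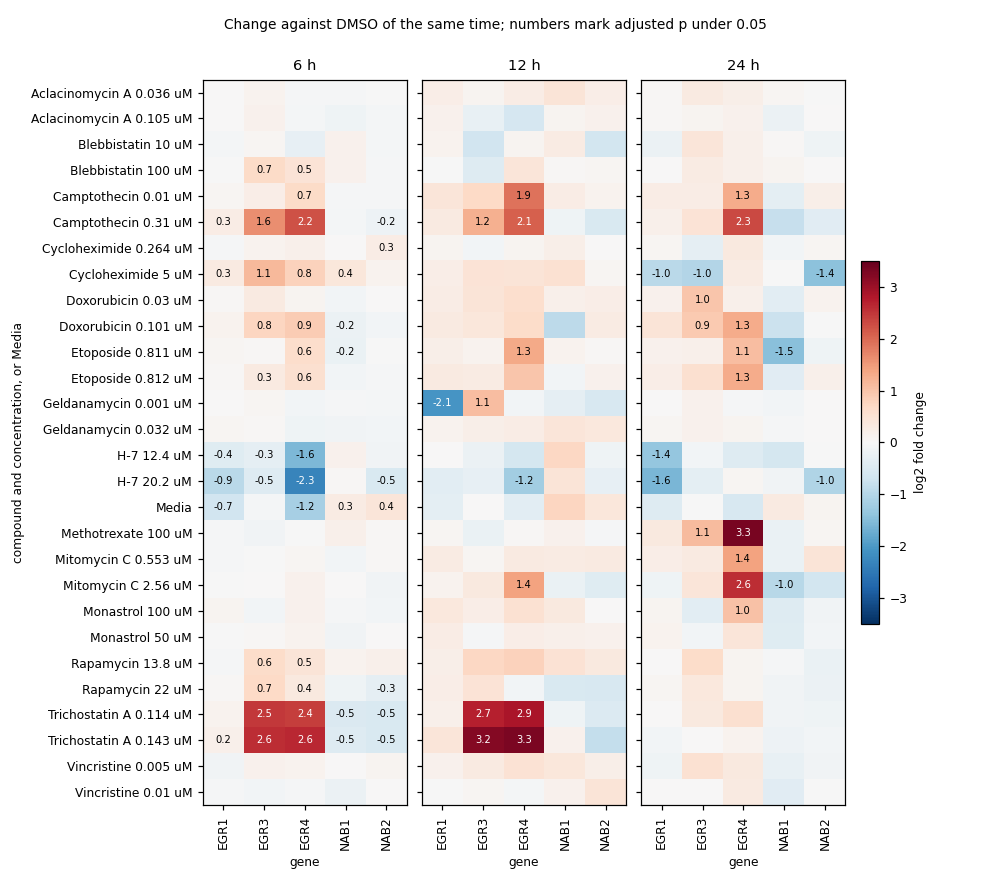
Log2 fold change of each gene against DMSO of the same time, for 28 groups at 6, 12 and 24 h; numbers stand in cells with an adjusted p under 0.05. The deepest red at 24 h is EGR4 under Methotrexate (3.31) and at 12 h EGR4 under Trichostatin A 0.143 uM (3.31), and EGR1 of Geldanamycin 0.001 uM at 12 h (-2.06) rests on 1 low-signal array.

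Over all groups of 24 h, 20 of 140 pairs were called, 12 higher and 8 lower, beside 5.61% of pairs over all genes, and 52 of 135 without the low-signal arrays, beside 18.3%. EGR4 made up 9 of the 12 rises. It rose under Mitomycin C at 2.56 uM (9.02, 7.65 and 8.81, a change of 2.59 ± 0.25) and 0.553 uM (1.42 ± 0.25), and under Camptothecin at 0.31 uM (7.90, 8.42 and 8.35, a change of 2.32 ± 0.25) and 0.01 uM (1.31 ± 0.25). Doxorubicin hydrochloride 0.101 uM (1.30 ± 0.25) and Etoposide at 0.811 uM (1.08 ± 0.25) and 0.812 uM (1.30 ± 0.25) raised it too. In all of these groups every array lay above every DMSO array; under Monastrol 100 uM, a mitotic kinesin inhibitor, the rise of 1.02 ± 0.25 had arrays that overlapped DMSO. EGR3 rose under Doxorubicin hydrochloride at 0.03 uM (0.96 ± 0.25) and 0.101 uM (0.92 ± 0.25), with no overlap. Leaving out 1 replicate number ended both of these EGR3 calls and the EGR4 calls under Camptothecin 0.01 uM, Etoposide 0.811 uM and Monastrol 100 uM. The shares of all genes called in these contrasts were 25.8% for Mitomycin C 2.56 uM and 1.13% for 0.553 uM, 8.21% for Camptothecin 0.31 uM and 1.19% for 0.01 uM, 6.07% for Doxorubicin hydrochloride 0.101 uM and 1.11% for 0.03 uM, 3.71% for Etoposide 0.811 uM and 1.45% for 0.812 uM, and 1.21% for Monastrol 100 uM.

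The falls of 24 h belonged to EGR1, EGR3 and the corepressors, and most rested in part on low-signal arrays. EGR1 fell under H-7 20.2 uM, where it measured 12.46, 12.29 and 9.35, against 12.73 to 13.08 (median 12.95) in DMSO: the change was -1.60 ± 0.32, and -0.62 ± 0.05 without the low-signal arrays, still called, but not called when only replicate 3 was left out. At 12.4 uM H-7 all 3 arrays were low-signal, and EGR1 measured 11.58, 12.31 and 10.91, in a contrast that called 59.1% of all genes, against 20.7% at 20.2 uM. EGR3 fell under Cycloheximide 5 uM, with 7.52, 7.71 and 8.00, below every DMSO array, a change of -1.04 ± 0.25. The contrast with all arrays called 13.5% of all genes. Of these 3 arrays 2 were low-signal, so the change of -1.15 without low-signal arrays rests on the array at 7.71. EGR1 under Cycloheximide 5 uM (12.82, 13.05 and 10.16) was called at -0.95 ± 0.32. It stood at 0.05 without the low-signal arrays, on the array at 13.05.

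NAB2 fell under Cycloheximide 5 uM, with 7.95, 7.75 and 5.16, against 8.18 to 8.62 (median 8.36) in DMSO, a change of -1.45 ± 0.33. Without the low-signal arrays the change was -0.68, on the 1 treated array left. Under H-7 20.2 uM NAB2 fell by -1.05 ± 0.33, and by -0.37 ± 0.10 without the low-signal arrays. With replicate 3 left out, whose array measured 5.16 under Cycloheximide 5 uM and 5.94 under H-7 20.2 uM, neither NAB2 fall was called. NAB1 fell under Etoposide 0.811 uM (6.90, 9.12 and 9.37, against 9.74 to 10.07, median 9.94, in DMSO; -1.46 ± 0.30, and -0.69 ± 0.09 without the low-signal arrays, still called, but not called when only replicate 1 was left out). Under Mitomycin C 2.56 uM, NAB1 measured 9.81, 7.29 and 9.80, and the change of -0.96 ± 0.30 was not called without the low-signal arrays. Without low-signal arrays NAB1 also fell under Doxorubicin hydrochloride 0.101 uM (-0.77 ± 0.08) and Camptothecin 0.31 uM (-0.75 ± 0.09), where EGR4 rose by 1.40 ± 0.15 and 2.58 ± 0.17. In Media, EGR1 was lower than in DMSO by -0.49 ± 0.05 and NAB1 higher by 0.30 ± 0.09 at 24 h on the same arrays. On these arrays 18.3% of pairs over all genes and contrasts with DMSO at 24 h were called.

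Under Methotrexate at 24 h, 9 of 21 immediate early genes rose and 1 fell (median 0.69, against -0.06 over all genes), where 3.42% of all genes rose and 1.32% fell. ARC (2.74), ATF3 (2.36) and IER3 (1.90) led the rises, and MYC (-1.03) fell. The ERK feedback genes FOSL1 (2.26), PHLDA1 (1.53) and DUSP5 (1.49) rose, and of the 14 listed 0 fell by limma's adjusted p and 2 by the unadjusted p. Of 17 EGR targets 4 rose, led by ID3 (2.02), THBS1 (1.55) and CDKN1A (1.46). Of the 11 partners of the NAB proteins and of EGR1, 1 rose, MTA2 (0.88). Of the 16 upstream kinases and factors limma called 0, and 1 had an unadjusted p under 0.05.

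Tested directly, the response differed between 24 and 6 h for 12 of 140 pairs, beside 3.47% of pairs over all genes, and for 32 of 135 without the low-signal arrays, beside 11.4%; 7 of the 12 were EGR4. The EGR4 response to Methotrexate was larger at 24 h than at 6 h by 3.33 ± 0.26 (SE; limma, adjusted p = 5.6e-24), and that of EGR3 by 1.23 ± 0.29, in a contrast that called 2.51% of all genes. The EGR3 difference was not called with the Methotrexate arrays averaged by replicate number (1.23 ± 0.36; limma, adjusted p = 0.068) or without replicate 1. Mitomycin C raised EGR4 by more at 24 h than at 6 h, by 2.45 ± 0.33 at 2.56 uM and 1.34 ± 0.33 at 0.553 uM, contrasts that called 12.8% and 0.28% of all genes; the call at 0.553 uM was lost when any 1 replicate number was left out. Under Trichostatin A the response shrank: at 0.143 uM by -2.51 ± 0.33 for EGR4 and -2.58 ± 0.36 for EGR3, and at 0.114 uM by -1.87 ± 0.33 and -2.14 ± 0.36, where 9.81% and 6.11% of all genes were called. By 24 h EGR4 under Trichostatin A 0.143 uM measured 6.03 ± 0.50, against 5.90 ± 0.34 in DMSO (SD, n = 3 and 8). With all arrays 0 of the 5 genes was called at 24 h under 0.143 uM, where 5% of all genes were. Without the low-signal arrays EGR4 and EGR3 were called higher there, by 0.48 ± 0.17 and 0.62 ± 0.11. NAB1 (0.09 ± 0.09) and NAB2 (-0.03 ± 0.10) were not called without them either.

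Under Cycloheximide 5 uM the response of EGR3, higher than DMSO at 6 h and lower at 24 h, differed by -2.17 ± 0.36, where 3.65% of all genes were called. That of NAB2 differed by -1.58 ± 0.39, with 1 low-signal array at 5.16. Without the low-signal arrays the NAB2 difference was -0.81, with 1 treated array left at 24 h. Without replicate 3 it was -0.67 and not called. EGR4, which fell under H-7 at 6 h, was not called there at 24 h. Its response differed between the times by 2.38 ± 0.33 at 20.2 uM and 1.13 ± 0.33 at 12.4 uM. The last rests on low-signal arrays alone at 24 h, and these contrasts called 12.7% and 45.5% of all genes. The DMSO mean of EGR4, which enters every such difference of this gene, was 7.36 at 6 h and 5.90 at 24 h. Camptothecin 0.31 uM gave EGR4 changes of 2.23, 2.08 and 2.32 over the 3 times, and the difference of 0.09 ± 0.33 between 24 and 6 h was not called. The EGR3 changes there were 1.63, 1.23 and 0.48. Their difference between 24 and 6 h was not called with all arrays, and was called without the low-signal arrays (-1.08 ± 0.19).

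**Figure D4:**
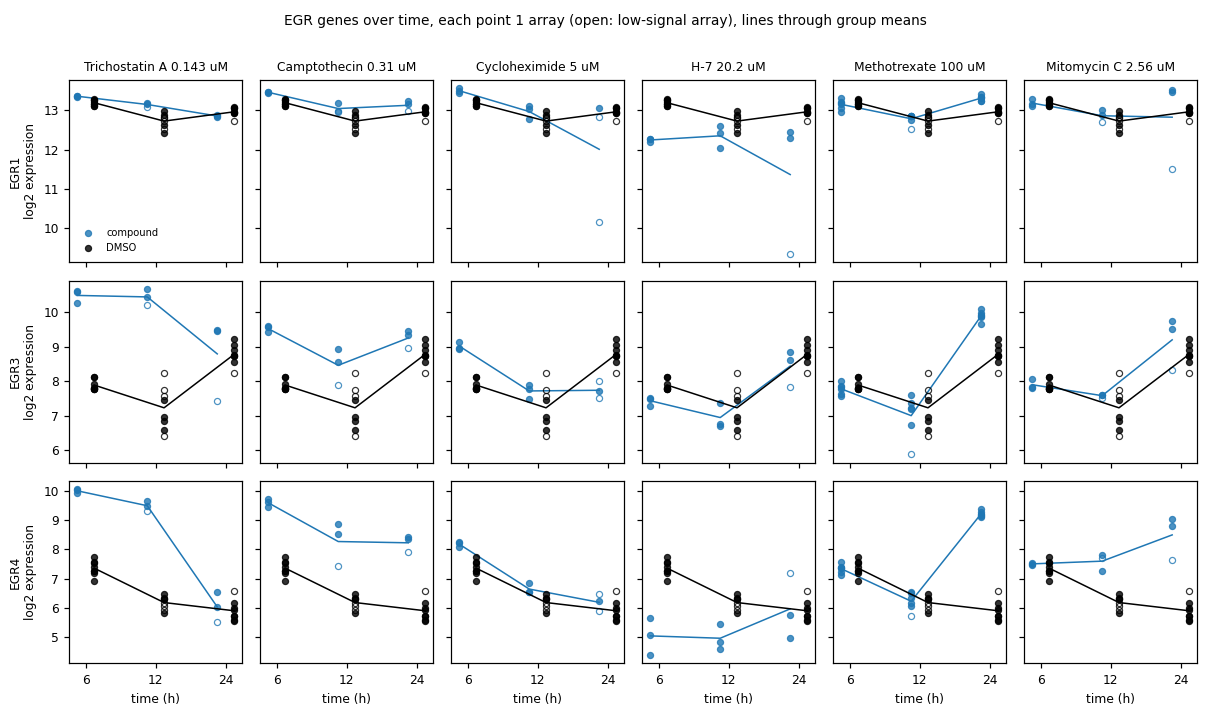
Log2 expression of EGR1, EGR3 and EGR4 at 6, 12 and 24 h for 6 compounds (blue, left of each pair) and DMSO (black, right); each point is 1 array, open points are low-signal arrays, and lines join group means. EGR4 under Trichostatin A 0.143 uM averages 6.03 at 24 h, beside 5.90 in DMSO (6.29 and 5.81 without the low-signal arrays), under Camptothecin 0.31 uM it stays above, and under Methotrexate and Mitomycin C 2.56 uM it stands far above DMSO at 24 h.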

How the data were processed

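Expression was measured on HT HG-U219 arrays of OCI-Ly3 cells. The deposited values are log2 intensities per probe set, made by the authors with RMA per the submitters' processing notes; the RMA version is not given in the sources used here. Of 49386 probe sets, 45259 carried 1 gene symbol in the platform annotation and gave 18239 genes, each read from its brightest probe set. The 5 genes with a probe set have 20 in all. The design listed 6 genes; with the 5 measured and 28 contrasts, each time holds 140 pairs of gene and contrast.

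The arrays of a time went together into 1 limma model (limma 3.58.1, R 4.3.3) with a coefficient for every group and moderated variances that follow the mean level. Benjamini-Hochberg adjustment ran over all genes of a contrast. The change between 6 and 24 h was fitted over all 282 arrays. Every gene of the family was described in every group, and from each list at most 3 called genes per direction with the largest change were named. The genes of the family, the lists and the tests were chosen with earlier results of these data known. Replicate numbers did not pair arrays: the median correlation of deviations between same-numbered arrays was -0.00 at 6 h and 0.01 at 24 h. Methotrexate arrays that share a number differed by as much as others. On simulated data for Camptothecin 0.31 uM over 18239 genes, a change of 1, given to 67 genes, was found for 100% of them at 6 h, 40.3% at 12 h and 52.2% at 24 h. The simulated noise was independent between genes and even over the arrays, and few genes were changed. The real arrays and contrasts differed in this, so these shares need not hold for them. Alternatives were another normalization, filter, probe set rule, choice of arrays, covariates, block and leaving out replicates. Figures were drawn with matplotlib 3.10.9.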

Additional observations from a re-analysis of the deposited data

Results flagged for a closer look

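Dixon's gap test was run for the 5 genes in the DMSO and Methotrexate groups of each time, 30 combinations of gene and group, and in 8 of them 1 array stood apart from the others, where chance gives about 1 in 20. Several of the 8 share a group and its arrays, so they are not independent. EGR1 was lowest at 12.53 on 1 Methotrexate array of 12 h (the others 12.76 to 12.86) and at 12.73 on 1 DMSO array of 24 h (the others 12.93 to 13.08), both low-signal arrays. NAB1 was lowest at 7.98 on 1 Methotrexate array of 12 h (others 9.31 to 9.79), at 7.76 on 1 DMSO array of 12 h (others 8.85 to 9.63) and at 9.55 on 1 Methotrexate array of 24 h (others 9.69 to 9.75), and highest at 10.16 on 1 Methotrexate array of 6 h (others 9.75 to 9.87). NAB2 was lowest at 7.16 on 1 Methotrexate array of 12 h (others 7.91 to 8.32) and at 8.23 on 1 Methotrexate array of 24 h (others 8.44 to 8.56).

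The response differed between 24 and 6 h, by limma on the difference itself, for 12 pairs. For EGR4 the difference was 3.33 under Methotrexate, 2.45 under Mitomycin C 2.56 uM, 1.34 under Mitomycin C 0.553 uM, 2.38 under H-7 20.2 uM, 1.13 under H-7 12.4 uM, -1.87 under Trichostatin A 0.114 uM and -2.51 under Trichostatin A 0.143 uM. For EGR3 it was 1.23 under Methotrexate, -2.17 under Cycloheximide 5 uM, -2.14 under Trichostatin A 0.114 uM and -2.58 under Trichostatin A 0.143 uM, and for NAB2 -1.58 under Cycloheximide 5 uM.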

How the results depend on the processing

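At 6 h the number of calls against DMSO, 44, ranged over the alternatives within 1.5 times that value, and so did the 16 calls between concentrations. Later times depended on the arrays kept. Without the low-signal arrays the calls against DMSO were 32 at 12 h (12 with them) and 52 at 24 h (20 with them), those between concentrations 5 at 12 h (1 with them) and 12 at 24 h (3 with them), and those between 6 and 24 h 32 (12 with them). With the model limited to the groups of a contrast, there were 34 against DMSO at 24 h, 2 and 6 between concentrations at 12 and 24 h, and 28 between 6 and 24 h. Quantile normalization again gave 3 and 5 calls between concentrations at 12 and 24 h, and the mean of all probe sets 3 at 12 h. Leaving out replicates in turn gave 8 to 20 calls against DMSO at 12 h, the most without replicate 2, and 1 to 4 between concentrations.

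No paired design was found, and with the replicate number as a block the calls against DMSO were 41, 8 and 14 at 6, 12 and 24 h, between concentrations 16, 1 and 3, and between 6 and 24 h 9. Of 108 named changes, 77 kept direction and call with the mean of all probe sets, 28 lost the call and 3 reversed. These were EGR3 under Camptothecin 0.31 uM at 12 h (-0.0695), under Cycloheximide 5 uM at 24 h (0.15) and between 0.101 and 0.03 uM Doxorubicin hydrochloride at 6 h (-0.00833). Without low-signal arrays, EGR1 reversed under Cycloheximide 5 uM at 24 h (0.0529), under Geldanamycin 0.001 uM at 12 h (0.26; -3.23 to 0.26 when replicates were left out in turn) and between its concentrations (-0.06; -0.27 to 3.42 when replicates were left out in turn, and 2.19 with all arrays). Beyond the arrays and probe sets left out, the cause was not tested. No background level was available to these comparisons, so it is not known which dim probe sets, such as the 3 unused ones of EGR3, lie above it.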
